A study of Mus musculus with 4 samples.

Results

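Mouse embryonic stem (ES) cells are recognised by a set of transcripts that are abundant in the undifferentiated state and that lie outside the core transcription factor circuit. The values of 10 such genes are described here: Dppa2, Dppa3, Dppa4, Dppa5a, Tcl1, Fbxo15, Utf1, Gdf3, Lin28a and Pecam1. They were taken by name, as every probe set of the array whose annotation gives 1 of these symbols and no other. They had 15 probe sets among 45037 that were not controls, and all 10, of 18193 genes with a single symbol on the array, were among the 12732 tested. Expression was measured on 4 arrays of total RNA from ES cells, of which 2 were labelled wildtype and 2 were labelled SOCS3 null, a genotype without the gene for a feedback inhibitor of cytokine signalling. The labels give no strain, clone, passage or culture medium, and they do not state whether replicate arrays are separate cultures. The p-values thus cover array-to-array spread alone, possibly only technical, and the small number of arrays limits the precision.

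Dppa stands for developmental pluripotency associated, a name given to genes whose expression follows that of the core factor Pou5f1 in early embryos and germ cells. ES cells are kept undifferentiated by leukemia inhibitory factor through the kinase JAK and the transcription factor STAT3, the pathway that SOCS3 restrains, while signalling through SHP2 and ERK favours differentiation. The 10 genes have unlike tasks: DNA methylation (Dppa3), chromatin (Dppa2, Dppa4, Utf1), RNA binding (Dppa5a, Lin28a), a secreted ligand (Gdf3), a cofactor of the kinase AKT (Tcl1), a ubiquitin ligase subunit (Fbxo15) and cell adhesion (Pecam1).

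The promoter sequences of 3 of the 10 genes were in the RefSeq table used (build GRCm38.p6). All 3 are shown, and they were not picked by their response. In the results below Tcl1 fell, Utf1 was not called, and Lin28a gave unlike results on its probe sets. Each sequence runs 5′ to 3′ on the gene's strand, from 250 bases before the transcription start to 50 bases after it. Capitals mark letters that match 1 of 6 searched motifs on either strand, which were the octamer ATGCAAAT, the SOX motif ACAAAG or ACAATG, the STAT motif TTCNNNGAA, the ESRRB motif AAGGTCA, the KLF motif GGGNGGGG and the GATA motif AGATAA. The windows are chr12:105222688-105222987 on the minus strand for Tcl1, chr7:139943606-139943905 on the plus strand for Utf1 and chr4:134018767-134019066 on the minus strand for Lin28a.
Tcl1: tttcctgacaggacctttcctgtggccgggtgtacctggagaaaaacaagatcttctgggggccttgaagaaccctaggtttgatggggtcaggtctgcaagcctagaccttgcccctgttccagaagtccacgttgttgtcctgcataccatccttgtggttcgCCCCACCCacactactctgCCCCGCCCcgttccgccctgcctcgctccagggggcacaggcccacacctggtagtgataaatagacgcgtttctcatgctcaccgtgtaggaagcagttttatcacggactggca
Utf1: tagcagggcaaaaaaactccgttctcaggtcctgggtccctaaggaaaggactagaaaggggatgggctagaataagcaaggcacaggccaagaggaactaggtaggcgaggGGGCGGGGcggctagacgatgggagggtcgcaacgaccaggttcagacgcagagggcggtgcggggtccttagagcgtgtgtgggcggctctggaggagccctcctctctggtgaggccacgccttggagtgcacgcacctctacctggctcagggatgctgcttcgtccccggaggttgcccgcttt
Lin28a: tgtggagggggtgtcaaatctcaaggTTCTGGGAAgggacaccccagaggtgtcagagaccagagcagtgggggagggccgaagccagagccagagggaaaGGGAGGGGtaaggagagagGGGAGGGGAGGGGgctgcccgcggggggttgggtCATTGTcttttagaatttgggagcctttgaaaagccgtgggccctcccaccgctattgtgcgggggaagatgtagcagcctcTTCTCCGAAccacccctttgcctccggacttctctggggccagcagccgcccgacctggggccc

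The Tcl1 window held 2 KLF matches, starting at positions -85 and -66 from the transcription start, and no match to the other motifs. The Utf1 window held 1 KLF match at -138. The Lin28a window held 3 KLF matches, at -149, -130 and -125, of which the last 2 overlap, 2 STAT matches at -224 and -14, and 1 SOX match at -96. Of 27025 promoters of the same length in the table, 32.7% held a KLF match, 29% a SOX match, 8.37% a STAT match, 1.74% an octamer, 4.66% an ESRRB match and 11.4% a GATA match. A match describes the letters only, and the lack of one says only that those letters are not in this window.

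The comparison of SOCS3 null with wildtype arrays asks how these markers differ in cells without SOCS3. The targeted transcript itself read 3024 and 1884 in wildtype, against 19.3 and 12.9 in SOCS3 null cells. A gene was called when limma's two-sided test over all genes gave a Benjamini-Hochberg adjusted p under 0.05, and each change is a difference of group means of log2(intensity + 16), negative where SOCS3 null cells are lower. Of the 10 markers Dppa3, Tcl1, Gdf3 and Dppa4 fell, 0 rose and 6 were not called. Over all genes 22.7% were called, 9.55% lower and 13.1% higher in SOCS3 null cells. The median change of the markers was -0.23, beside -0.01 for all genes tested, and their changes ran from -3.10 to 0.43. This median was -0.53 with the mean of each gene's probe sets, -0.36 without wildtype replicate 1 and -0.12 without wildtype replicate 2. At an unadjusted p under 0.05 limma gave 4 markers lower and 1 higher. The SOCS3 null arrays lay wholly outside the wildtype range for 7 of the 10, which was the case for 65.8% of all genes tested. With any 1 array left out limma called 0 markers, as it called 0 genes in all, while 3 or 4 markers were lower at an unadjusted p under 0.05.

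**Figure D1:**
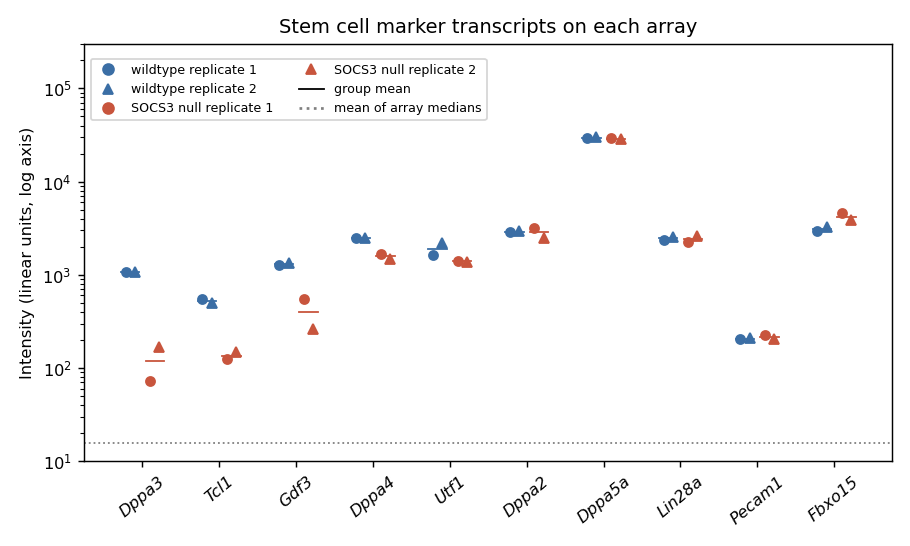
Intensity of the 10 markers on each of the 4 arrays (log axis, linear intensity units), each gene on its brightest probe set, with bars at the group means of 2 arrays and a dotted line at the mean of the array medians. The SOCS3 null points of Dppa3, Tcl1 and Gdf3 lie well below their wildtype points, while those of Dppa2, Lin28a and Pecam1 overlap them.

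Dppa3, also called Stella or PGC7, is a small nuclear protein of the oocyte, early embryo and germ line that protects DNA from changes in methylation. Its intensity was 1076 and 1075 in wildtype cells, against 73.2 and 167 in SOCS3 null cells, that is 1075 ± 0.370 against 120 ± 66.0 (SD, n = 2). Both SOCS3 null arrays were far below both wildtype arrays, and they differed from each other by more than the wildtype arrays did. The ratio of the means was 8.97, and the log2 change was -3.10 (SE 0.38, limma adjusted p = 0.0157). This was the largest change among the 10 markers, and it ranked 14 among the genes tested when these are ordered from the most negative change. With 1 SOCS3 null array left out the change was -3.61 without replicate 2 and -2.58 without replicate 1. In RNA from whole cell populations, a smaller share of cells with the transcript and less transcript in each cell cannot be told apart.

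Gdf3, a ligand of the TGF-beta family that acts with the coreceptor Cripto, encoded by Tdgf1, was measured by a pair of probe sets. On the brighter one the intensity was 1263 and 1334 in wildtype cells, against 547 and 260 in SOCS3 null cells, or 1298 ± 50.05 against 404 ± 203 (SD, n = 2). The groups did not overlap, but the SOCS3 null arrays differed widely. The log2 change was -1.74 (SE 0.38); limma's adjusted p was 0.0482 over genes and 0.0646 over probe sets, so this probe set passed only in the test per gene. On the other probe set the intensity was 245 and 247 in wildtype cells, against 76.6 and 48.4 in SOCS3 null cells, a log2 change of -1.76 (SE 0.20) which passed over all probe sets (limma adjusted p = 0.0215). The changes on these probe sets differed by 0.03 (SE 0.25; exact permutation p = 1, two-sided). With 2 arrays against 2 that test cannot give a p under 0.333, so it cannot decide whether the probe sets agree. On the brighter probe set the change of Gdf3 was -1.22 without SOCS3 null replicate 2 and -2.25 without SOCS3 null replicate 1.

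Dppa3 and Gdf3 are direct neighbours on chromosome 6, and Nanog, a core factor of pluripotency, is the next named protein-coding gene after Dppa3 in the RefSeq order. Nanog had intensities of 5341 and 4973 in wildtype cells, against 3646 and 4050 in SOCS3 null cells, without overlap, and its change of -0.42 (SE 0.10) did not pass (limma adjusted p = 0.0565). On the other side of Gdf3 lies Apobec1, a cytidine deaminase that edits RNA, which differed by 0.75 in the opposite direction (adjusted p = 0.0636). Of these 4 adjacent genes, Dppa3 and Gdf3 were called.

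Nodal is a related ligand that shares receptors with GDF3. Of 16 tested genes of the Nodal pathway 3 fell, 3 rose and 10 were not called, beside 9.55% lower and 13.1% higher over all genes, and whether these shares differ was not tested. The median change was 0.05. Those that fell were Lefty1, an antagonist of Nodal (-4.47), Nodal itself (-1.64) and Skil, a repressor of SMAD activity (-1.92). Those that rose were Furin, a protease that cleaves the precursors of such ligands (2.46), and the signal transducers Smad4 (0.76) and Smad2 (0.48). The coreceptor gene Tdgf1 had mean intensities of 14925 in wildtype and 12174 in SOCS3 null and was not called (change -0.30, adjusted p = 0.266).

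Because Dppa3 is expressed in germ cells and oocytes, genes listed for these cells were also described. Whether each listed gene is particular to these cells was not tested. Of 21 tested, 6 fell, 1 rose and 14 were not called, beside 9.55% lower and 13.1% higher over all genes, and the median change was -0.60. Whether these shares differ was not tested. Above the filter on dim probe sets in both groups were 20 genes, of which 5 fell and 1 rose, with a median of -0.585. The piRNA pathway gene Tdrd12 changed by -3.95, the germ cell specifier Prdm1, above the filter only in wildtype, by -1.65, and the homeobox gene Rhox5 rose by 2.58. Tet1, which oxidises methylated cytosine in DNA, fell by 0.72 on the log2 scale. Stra8 and Tfap2c, also on this list, were called with changes of -2.07 and -1.11. The germ cell markers Ddx4 and Dazl were not called, with changes of -0.57 and 0.68. At an unadjusted p under 0.05 limma gave 11 of the 21 lower and 3 higher.

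Tcl1 encodes a small protein that binds AKT and raises its activity, and it is known for a role in the self-renewal of ES cells. Its intensity was 547 and 498 in wildtype cells, against 125 and 147 in SOCS3 null cells, or 522 ± 34.7 against 136 ± 15.8 (SD, n = 2). The groups were far apart relative to the spread within each. The ratio of the means was 3.84 and the log2 change -1.83 (SE 0.12, limma adjusted p = 0.00673). Tcl1 was called in all 11 of the alternatives that kept every array, with changes from -1.94 to -1.55.

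The neighbouring Tcl1b genes, a cluster of related genes in the mouse, were not called. Tcl1b4, next to Tcl1, was dim on all arrays, with means of 17.4 and 17.7, and differed by 0.01. Tcl1b3 had means of 200.03 in wildtype and 213 in SOCS3 null and differed by 0.08 (adjusted p = 0.552). Tcl1b1 and Mtcp1, the other tested relatives, were dim and differed by -0.07 and -0.02. Of 13 tested genes of the TCL1 family and the AKT pathway 1 rose and 0 fell, beside 13.1% higher and 9.55% lower over all genes. The median was 0.02, and whether these shares differ was not tested. At an unadjusted p under 0.05 limma gave 3 higher and 0 lower. The called gene was that of the kinase Akt1, from 191 and 256 in wildtype to 779 and 664 in SOCS3 null, a log2 change of 1.63 (SE 0.18, adjusted p = 0.0129).

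Dppa4 and Dppa2 encode related nuclear proteins with a SAP domain that work together at chromatin, and they are adjacent on chromosome 16. Dppa4 had intensities of 2474 and 2466 in wildtype cells, against 1686 and 1487 in SOCS3 null cells, or 2470 ± 5.64 against 1587 ± 140 (SD, n = 2). The groups did not overlap, and the log2 change was -0.64 (SE 0.10, limma adjusted p = 0.0249). Dppa2 on its brighter probe set had 2866 and 2948 in wildtype cells, against 3210 and 2501 in SOCS3 null cells. The SOCS3 null arrays lay on both sides of the wildtype arrays. Its change was -0.04 (SE 0.15, adjusted p = 0.894), with a 95% interval of -0.46 to 0.38. The direction turned to 0.14 without SOCS3 null replicate 2.

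The second probe set of Dppa2 gave 1849 and 2025 in wildtype cells, against 1928 and 1241 in SOCS3 null cells, a change of -0.32 (SE 0.25, limma adjusted p = 0.446 over all probe sets). On both probe sets of Dppa2 SOCS3 null replicate 2 was the lowest array. Beyond the pair on chromosome 16, Nectin3, a cell adhesion gene beside Dppa4, fell by 1.53 on the log2 scale (adjusted p = 0.00915), and Morc1, a germ cell gene beside Dppa2, was not called (-0.57, adjusted p = 0.422).

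DPPA2 and DPPA4 are known to activate genes of the 2-cell embryo. Of 20 genes listed for that stage 10 were on the array under these names and 6 were tested, with a median of 0.30. Among the 6, 2 rose and 0 fell, also at an unadjusted p under 0.05 in limma. Over all genes 13.1% were higher and 9.55% lower. Sp110, not called, passed the filter on dim probe sets only through the SOCS3 null arrays, and 2 of the 5 genes above it in both groups rose. Whether the listed genes are particular to the 2-cell stage was not tested. The 2 that rose were Pramel7, from a mean of 12.03 to 189, and Usp17la, from 14.9 to 79.9, both dim in wildtype. Their log2 changes were 2.86 and 1.63, and their wildtype means lie below the pseudocount of 16. Duxf3, which encodes an activator of this programme, lay below the array medians with means of 11.04 and 11.11.

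Lin28a encodes an RNA-binding protein that blocks the maturation of let-7 microRNAs. The brighter of its probe sets had intensities of 2351 and 2566 in wildtype cells, against 2237 and 2639 in SOCS3 null cells. The groups overlapped, and the change was -0.02 (SE 0.12, limma adjusted p = 0.949; 95% interval -0.36 to 0.33). Its direction turned to 0.011 under quantile normalization. The dimmer probe set, whose annotated source is a RefSeq transcript, had 476 and 654 in wildtype cells, against 217 and 152 in SOCS3 null cells, or 565 ± 126 against 184 ± 45.4 (SD, n = 2). Both SOCS3 null arrays were below both wildtype arrays there, a log2 change of -1.54 (SE 0.25) which passed over all probe sets (limma adjusted p = 0.0367).

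The probe sets of Lin28a therefore gave different answers on the same RNA. The change on the dimmer one exceeded that on the brighter one by -1.52 (SE 0.39), and an exact two-sided permutation test of that difference gave p = 0.333, the smallest that 2 arrays against 2 allow. With the mean of its probe sets in place of the brightest, Lin28a changed by -0.78 and was called (adjusted p = 0.0277), so the call for this gene depends on the rule for its probe sets. The files used here do not say which part of the transcript each probe set reads.

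**Figure D2:**
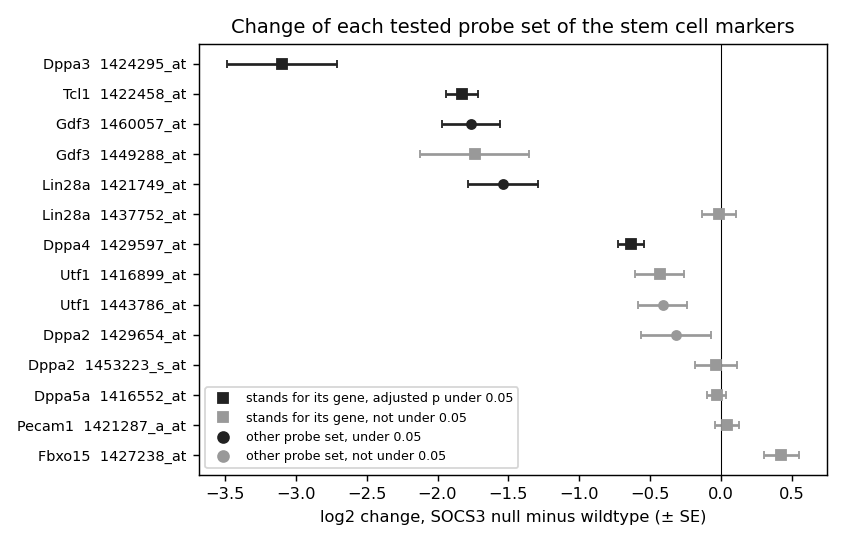
Change (log2, SOCS3 null minus wildtype, with SE as bars) of each of the 14 tested probe sets of the markers. Squares stand for their gene in the test per gene, circles are the other probe sets, and black symbols have an adjusted p under 0.05 over all probe sets; the Gdf3 probe sets sit together near -1.7, while those of Lin28a lie at -1.54 and -0.02.

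Of the 14 tested probe sets of the markers 5 were called, all lower in SOCS3 null: those of Dppa3, Dppa4 and Tcl1, the dimmer one of Gdf3 and the dimmer one of Lin28a. Over all probe sets tested 15.9% were called. The probe set that was not tested, 1 of the 3 of Utf1, had intensities of 2.75 to 2.80 on all arrays and lay below the filter on dim probe sets. The brightest probe sets of all 10 markers lay above the filter in both groups, so none was tested only because of the group in which it was high.

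Of 15 tested genes around the let-7 pathway 2 rose, 2 fell and 11 were not called, which is near the shares over all genes (13.1% higher, 9.55% lower), and the median was -0.04. With the mean of each gene's probe sets, or with a block on the replicate number, 0 of the 15 were called lower. Hmga2, a chromatin protein whose transcript is a well known let-7 target, rose from 148 and 183 in wildtype to 978 and 835 in SOCS3 null, a log2 change of 2.35 (SE 0.15, adjusted p = 0.00665). Ago2, which binds mature microRNAs, rose by 0.56, and Dgcr8 and Dicer1, which process their precursors, changed by -0.50 and -0.41. Dhdds and Crybg2, the neighbours of Lin28a on chromosome 4, were not called (0.13, adjusted p = 0.35, and 0.65, adjusted p = 0.151). Mycn, another let-7 target, had means of 2539 and 1335 and was not called (-0.94, adjusted p = 0.0931). Lin28b, the relative of Lin28a, lay below the filter and was not tested.

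Utf1 encodes a chromatin-bound factor of undifferentiated cells. Its brightest probe set had intensities of 1618 and 2188 in wildtype cells, against 1422 and 1361 in SOCS3 null cells. The groups did not overlap, but the wildtype arrays were further apart from each other than the lower of them was from SOCS3 null. The change of -0.43 (SE 0.17) did not pass (limma adjusted p = 0.162), and its 95% interval was -0.92 to 0.06. The change was -0.65 without wildtype replicate 1 and -0.22 without wildtype replicate 2. A dimmer probe set gave 73.9 and 95.6 against 52.0 and 67.4, a change of -0.41 (SE 0.17, adjusted p = 0.2 over all probe sets), of similar size and also not called. The neighbours of Utf1 on chromosome 7 were called in opposite directions: Kndc1 changed by -1.04 and Spef1l rose by 0.56.

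Dppa5a, also known as ESG1, encodes an RNA-binding protein with a KH domain. It was very bright on all 4 arrays, with 29076 and 30012 in wildtype cells, against 29035 and 28762 in SOCS3 null cells. The highest and the lowest array differed by little, although the SOCS3 null arrays were both just below the wildtype arrays. The change was -0.03 (SE 0.08, limma adjusted p = 0.81), with a 95% interval of -0.25 to 0.18. Whether such a bright probe set still follows the amount of RNA in proportion was not tested. Its neighbour Ooep, an oocyte gene of the same KH domain family, fell from 1652 and 1431 to 809 and 599, a log2 change of -1.13 (SE 0.18, adjusted p = 0.0278).

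Fbxo15, an F-box protein whose gene is a classic target of the factors encoded by Pou5f1 and Sox2, was the only marker whose SOCS3 null arrays were both above the wildtype arrays. The intensities were 2971 and 3278 in wildtype cells, against 4570 and 3856 in SOCS3 null cells, or 3125 ± 217 against 4213 ± 505 (SD, n = 2). The change of 0.43 (SE 0.13) did not pass (limma adjusted p = 0.0908; range over the alternatives 0.0587 to 0.363), and its 95% interval, which is not adjusted for the number of genes, was 0.07 to 0.78. It was positive in all 15 alternatives. Its neighbours on chromosome 18, Cyb5a and Timm21, fell by 1.12 and 1.01 on the log2 scale. Of 11 tested genes of the SCF ubiquitin ligase, the complex that F-box proteins join, 1 rose and 2 fell. Over all genes 13.1% were higher and 9.55% lower, and whether these shares differ was not tested. The F-box gene Fbxw7 rose by 0.57, and Fbxo5 and Skp2 changed by -0.86 and -0.43.

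Pecam1 encodes an adhesion molecule of endothelial cells and platelets that mouse ES cells carry on their surface as well. Its intensity was 203 and 210 in wildtype cells, against 224 and 203 in SOCS3 null cells. The groups overlapped, and the change was 0.04 (SE 0.09, limma adjusted p = 0.776; 95% interval -0.21 to 0.29), turning to -0.012 under quantile normalization. Its neighbour Tex2 on chromosome 11 was not called (0.29, adjusted p = 0.0901). Because Pecam1 is also an endothelial gene, markers of endothelial cells and platelets were set beside it. Of 20 listed 11 were tested, of which 4 rose, 1 fell and 6 were not called. Over all genes 13.1% were higher and 9.55% lower, and whether these shares differ was not tested. The median of the 11 was 0.56. Those that rose were Esam (2.34), the cadherin gene Cdh5 (1.00), the receptor genes Flt1 (0.90) and Tek (0.56), and the one that fell was Vwf (-1.68). The summed intensity of the 11 was 599 and 669.5 in wildtype cells, against 1161 and 1245 in SOCS3 null cells. Cdh5 passed the filter on dim probe sets only through the SOCS3 null arrays and Vwf only through the wildtype arrays, so each had to differ. Of the 9 genes above the filter in both groups 3 rose and 0 fell. Without the filter, over all listed genes on the array, the median was 0.00. The receptor gene Kdr was below the array medians in both groups, with means of 13.1 and 13.0, and Cdh5 had 6.61 and 5.17 in wildtype cells, against 27.6 and 27.6 in SOCS3 null cells. Whether endothelial cells or platelets were present, and whether they had any part in the Pecam1 signal, was not tested.

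**Figure D3:**
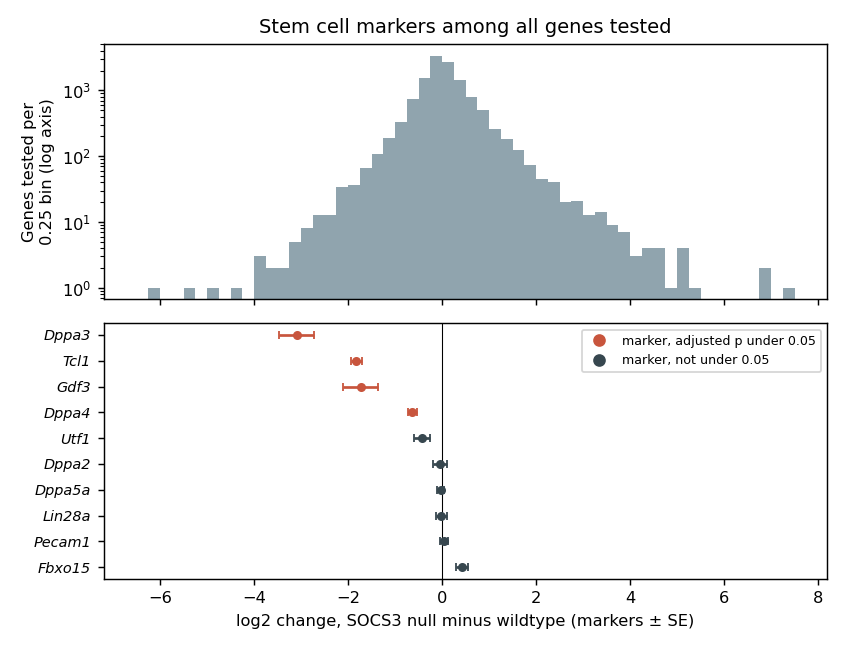
Upper panel: number of genes tested per bin of log2 change (SOCS3 null minus wildtype, log axis for the counts, 12732 genes). Lower panel: change of each of the 10 markers with SE as bars; Dppa3 at -3.10 lies in the lower tail, Tcl1 and Gdf3 lie near -1.8, and Dppa2, Dppa5a, Lin28a and Pecam1 lie near 0.

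No test set the 10 genes against other markers of the undifferentiated state. Of 34 such markers outside the list 15 fell, 5 rose and 14 were not called, with a median of -0.46. Over all genes 9.55% were lower and 13.1% higher. Whether the shares of these markers, or of the epiblast markers below, differ from those was not tested. Prdm14, a repressor of differentiation genes, changed by -1.51, and Tbx3, a transcription factor of naive cells, rose by 1.78. Markers of the formative epiblast had a median of -0.97, with 6 of 10 tested lower and 0 higher (7 and 0 at an unadjusted p under 0.05 in limma). Zic5 and Lef1, both transcription factors of this list, changed by -2.82 and -3.01. Lef1 and Zic2 passed the filter only through the wildtype arrays, and of the 8 genes above it in both groups 4 fell.

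Markers of other cell types were set beside these results. Over all genes 13.1% were higher and 9.55% lower, and whether the shares of the lists below differ from those was not tested. Of 20 tested primitive endoderm markers 16 rose and 0 fell, with a median of 3.93, and their summed intensity was 3884 and 4451 in wildtype cells, against 62832 and 65136.5 in SOCS3 null cells. At an unadjusted p under 0.05 limma gave 17 higher and 0 lower. Foxa2, Gata4 and Sox17 passed the filter only through the SOCS3 null arrays and Ttr only through the wildtype arrays, and of the 16 genes above it in both groups 13 rose and 0 fell. Without the filter the median was 3.39. Lama1 and Col4a1, a laminin and a collagen chain of basement membrane, rose by 5.15 and 5.22. Fibroblast and feeder markers had 0 of 15 called (1 at an unadjusted p under 0.05 in limma), a median of 0.12 and summed intensities of 8598 and 12578 in wildtype cells, against 12498 and 7672.5 in SOCS3 null cells. Of 6 mesoderm markers Snai1 (2.19) and Eomes (0.94) rose and 0 fell. Of 9 trophoblast markers Gata2 (1.27) and Eomes rose and Tfap2c (-1.11) fell. Gata3 and Plac1, neither called, passed the filter only through the SOCS3 null arrays. Of 6 neuroectoderm markers Tubb3 (-1.79), Neurod1 (-1.95) and Map2 (-0.98) fell and 0 rose. Map2 and Pax6, the latter not called, passed the filter only through the wildtype arrays, and of the 4 genes above it in both groups 2 fell. Without adjustment limma gave 3 higher and 0 lower for mesoderm. For trophoblast it gave 5 higher, Gata3 and Plac1 among them, and 1 lower. For neuroectoderm it gave 0 higher and 4 lower, Map2 and Pax6 among the last. The medians were 0.56 for mesoderm, 0.90 for trophoblast and -0.67 for neuroectoderm. The part of the endoderm increase in the falls of Dppa3, Gdf3, Tcl1 and Dppa4 was not tested.

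**Figure D4:**
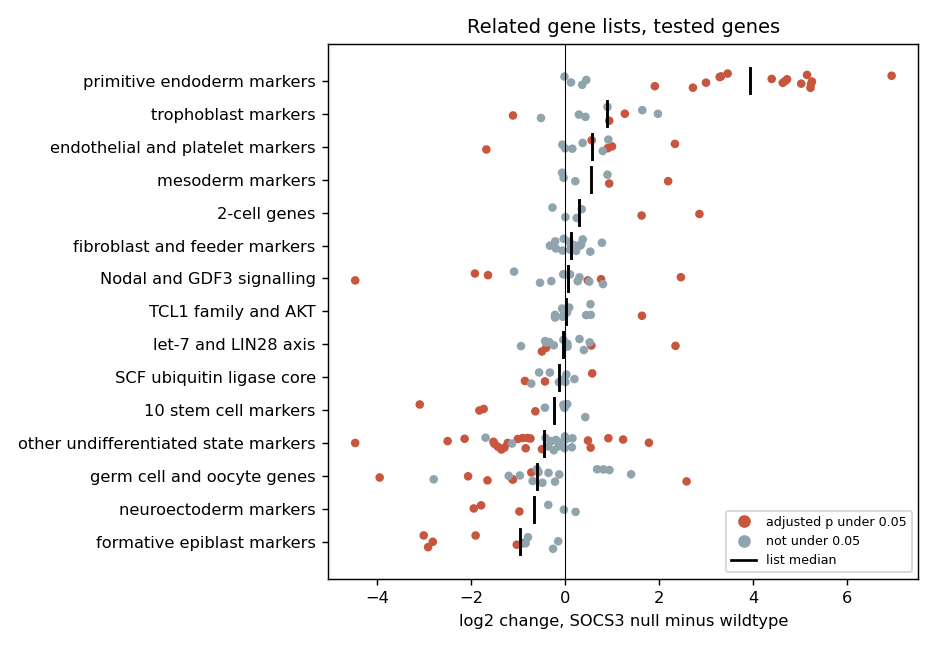
Log2 change (SOCS3 null minus wildtype) of each tested gene in the list of 10 stem cell markers and in 14 related lists, with red points at an adjusted p under 0.05 and black bars at list medians. The primitive endoderm markers lie far to the right with a median of 3.93, and the stem cell markers spread from -3.10 to 0.43 around a median of -0.23.

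The gene pattern most like that of Dppa3 over the 4 arrays, by Euclidean distance between log2 values relative to each gene's wildtype mean, was that of Otx2, a transcription factor of the epiblast and head (distance 0.45). Otx2 had 255 and 237 in wildtype cells, against 12.9 and 25.4 in SOCS3 null cells, with the same array lowest as for Dppa3. The next were Ldhb, a lactate dehydrogenase subunit (0.52), and Actn3, an actin-binding protein (0.55). Ldhb went from 1906 and 1846 to 101 and 236, and Actn3 from 327 and 281 to 21.1 and 32.0. In all 3 genes SOCS3 null replicate 1 was the lowest array. The likeness is a description over 4 arrays.

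**Figure D5:**
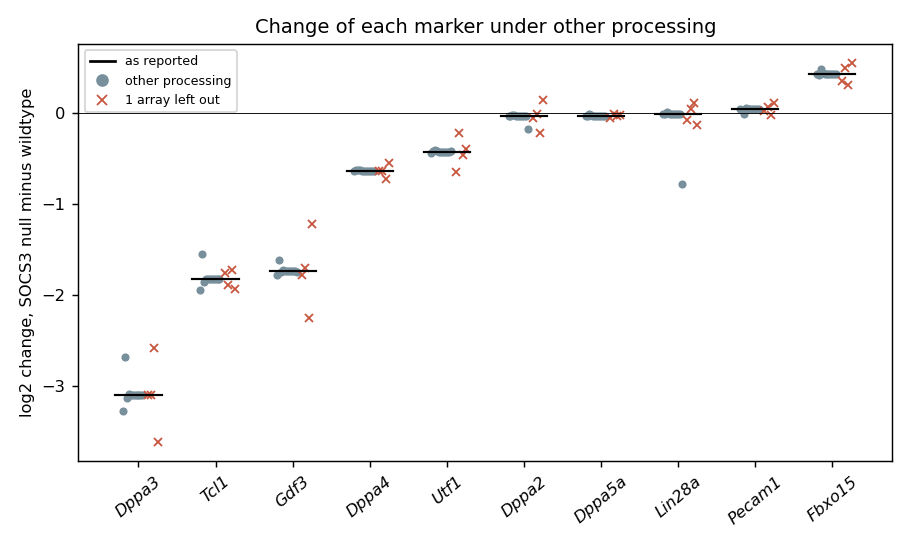
Log2 change (SOCS3 null minus wildtype) of each marker as reported (black bars), under 11 other ways of processing (grey points) and with 1 array left out (red crosses). Dppa3, Tcl1, Gdf3 and Dppa4 stay below 0 in every setting, and the isolated grey point of Lin28a at -0.78 is the mean of its probe sets.

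The falls of Dppa3, Tcl1, Gdf3 and Dppa4 were below 0 in all 15 alternatives. Dppa3 passed in 10 of the 11 that kept every array, Tcl1 in 11, Dppa4 in 9 and Gdf3 in 8. Without the filter on dim probe sets only Tcl1 was called among the 10 markers. Leaving the filter out raises the number of genes adjusted over and also changes limma's SE. The SE went from 0.378 to 0.434 for Dppa3 and from 0.0986 to 0.0775 for Dppa4. What part each has in the lost calls was not tested.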

How the data were processed

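Total RNA of ES cells was measured on 4 expression arrays, and groups and replicate numbers came from the labels. The deposited values are intensity values per probe set on a linear scale; how the authors summarised and normalized them is not given in the sources used here. Array medians were 15.7 to 16.0 and 75th percentiles 113.8 to 119.5, so nothing was normalized again. After removal of 64 control probe sets, 27022 with a mean log2(intensity + 16) at or above the 40th percentile (4.72) were tested with limma 3.58.1 in R 4.3.3 (lmFit and eBayes, genotype as the only term, Benjamini-Hochberg). A gene with several probe sets was represented by its brightest. The annotation gave 34945 probe sets 1 symbol, 932 several and 9160 none, and 34741 matched a GRCm38.p6 gene table. That table was used for gene order.

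The pseudocount of 16 understates changes of dim genes. The 10 markers and the 14 other lists were chosen with earlier results of these data known. Named genes were all markers, Socs3, the 2 called genes with the smallest p of each list (all called genes where 5 or fewer), the nearest named protein-coding neighbours, and the 3 genes most like the marker with the largest change. Others were named after their values were seen. Lefty1, Nodal, Smad2 and Smad4 were a pathway's other calls, and uncalled genes, Prdm1, Tet1 and Stra8 were examples. The neighbours Gsta2, Bdkrb2 and Milr1 were below the filter. Intensities are mean ± SD, n = 2. The procedure was tested on simulated data. Figures were drawn with matplotlib 3.10.9.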

Additional observations from a re-analysis of the deposited data

How the results depend on the processing

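In limma, Dppa3, Tcl1, Gdf3 and Dppa4 kept their direction under all 15 alternatives: quantile normalization or median centring, other pseudocounts (1, 64), other filters (none, 60th percentile), a trended or robust eBayes, blocking on replicate number as given or crossed, averaged probe sets, and each array left out. Without the filter 1631 genes, 1 marker and 1 marker probe set were called. With an array left out 0 genes, 0 markers lower and 0 probe sets of markers were called, against 2888, 4 and 5 with all arrays, and the unadjusted p was under 0.05 for 2928 to 4733 genes. The replicate numbers are shared between the groups, but the deviations of same-numbered arrays correlated at -0.118 and nothing in the labels pairs them. With the replicate block 1914 genes, 2 markers lower and 3 marker probe sets were called. With the numbers crossed, chosen after seeing the data, the counts were 2817, 4 and 6.

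Among markers that were not called, Dppa2 ran from -0.216 to 0.14 with 1 array left out, being positive without SOCS3 null replicate 2. Lin28a ran from -0.134 to 0.10, positive without wildtype replicate 2 or SOCS3 null replicate 1, and was 0.0108 with quantile normalization. Pecam1 ran from -0.0215 to 0.107, negative without SOCS3 null replicate 1, and was -0.0121 with quantile normalization. Utf1 ran from -0.65 to -0.22 with 1 array left out. Gdf3 was not called with a pseudocount of 64 (limma adjusted p = 0.0629), without the filter (0.138) or with the replicate block (0.0549). The Lin28a change of -0.78 needs the mean of its probe sets. The cause was not tested. Detection calls were not used here, and what signal over background limits was not tested.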

Other observations

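Many deposited values were identical on different arrays to the last decimal given. Pecam1 was 203.127 on wildtype replicate 1 and on SOCS3 null replicate 2. Over all probe sets that were not controls, 3383 had the same value on both wildtype arrays, 1271 on both SOCS3 null arrays and 1724 to 1957 on a wildtype and a SOCS3 null array. The spread between arrays is 0 for such pairs.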
